A study of Mus musculus with 24 samples.

Results

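Wnt ligands, their receptors and a few pathway targets were followed across 8 groups of mouse marrow-derived mesenchymal stem cells (MSC), stromal cells that can form osteoblasts or adipocytes. The set held 46 of the 25385 gene symbols measured and was chosen by name. It comprised 19 Wnt genes, 4 R-spondin genes (Rspo), 10 Frizzled genes (Fzd), 5 genes for co-receptors (Lrp5, Lrp6, Ror1, Ror2 and Ryk), 3 genes for R-spondin receptors (Lgr4, Lgr5 and Lgr6), 4 genes for transcription factors of the pathway (Lef1, Tcf7, Tcf7l1 and Tcf7l2) and Axin2. In 6 of them several transcripts were summed.

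Wnt proteins are secreted, lipid-modified ligands that bind Frizzled receptors. With Lrp5 or Lrp6 as co-receptor this binding stabilizes beta-catenin, which enters the nucleus and acts with Tcf and Lef factors, and Axin2 is a widely used target and feedback inhibitor of this arm. Ror2 and Ryk bind Wnt ligands, Wnt5a among them, in signalling that need not involve beta-catenin. R-spondins bind Lgr receptors and keep Frizzled receptors at the cell surface by removing the ubiquitin ligases Znrf3 and Rnf43. In marrow stroma, the beta-catenin arm is known for favouring osteoblasts over adipocytes.

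The groups held 3 libraries each and shared their cell stock, which had been cryopreserved and passaged, and a serum-supplemented MEM alpha medium. Dexamethasone, indomethacin and insulin made up the adipogenic medium, given for 7 days, and ascorbic acid with beta-glycerophosphate the osteogenic medium, given for 7 or 15 days, while day 0 cells were taken at confluence without either. In each of these 4 states one group received 100 nM 1,25(OH)2D3, the hormonal form of vitamin D (VD3), for 24 hours and the other received ethanol vehicle. Whether replicates came from separate cultures is not in the labels, and the p-values therefore cover no more than the variation among these libraries. Ribosomal RNA had been depleted from total RNA, and values are RPKM, read numbers scaled by transcript length and by the mapped reads of the library. That scale is per length, so levels of different genes can be set beside each other.

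The estimated depth was 7.12 to 46.7 M reads per library, at which 3 reads on a transcript of 1 kilobase equal 0.0642 to 0.421 RPKM. As a background, the median RPKM of 1494 olfactory, vomeronasal and taste receptor genes was taken in each library. It was 3.39 to 4.94 RPKM in 5 of the 6 day 0 libraries, against 0.208 to 1.3 RPKM in the other 19 libraries, among them replicate 2 of day 0 with VD3. The marker check of the labelled states gave summed adipocyte markers (8 genes) between 30040 and 32040 RPKM in adipogenic vehicle libraries, against 391 to 443 RPKM in day 0 vehicle libraries. Summed osteoblast markers (9 genes) lay between 709 and 850 RPKM in osteogenic vehicle libraries of both days, against 65.8 to 76.7 RPKM in day 0 vehicle libraries and 130 to 153 RPKM in adipogenic vehicle libraries. The stromal receptor genes Pdgfra and Pdgfrb averaged 70.4 and 53.9 RPKM in day 0 vehicle libraries, while the stromal surface marker Thy1 averaged 1.06 RPKM there and the stromal marker Eng 0.662 RPKM. Of other cell types, the 7 blood and macrophage markers summed to at most 10.7 RPKM and the 4 endothelial markers to at most 14.3 RPKM in any library.

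Against this background, 31 of the 46 members had a mean under the background median in day 0 vehicle cells, where it was 4.21 ± 0.718 RPKM (SD, n = 3). The number under it was 25 in adipogenic day 7 vehicle cells (0.733 ± 0.121 RPKM), 16 in osteogenic day 7 vehicle cells (0.337 ± 0.112 RPKM) and 18 in osteogenic day 15 vehicle cells (0.334 ± 0.0838 RPKM). In all 8 groups 12 members were under it, and 13 were under it in no group. Levels in every library of at least 1 group were above the 95th percentile of the background genes for 23 members. A filter of at least 1 RPKM in at least 3 libraries passed 30 members, which were tested. The 16 others were Wnt1, Wnt3, Wnt3a, Wnt4, Wnt6, Wnt7a, Wnt8a, Wnt8b, Wnt9b, Wnt10a, Wnt11, Rspo1, Fzd9, Fzd10, Lef1 and Tcf7l1. Their group means ran from 0.0247 to 1.05 RPKM, with no library above 1.52 RPKM. A few of these means passed the background median. In no group were all libraries of any of the 16 above the 95th percentile of the background genes. These members were therefore not separable from background at this depth. In the RefSeq table, 8 Wnt genes lie in pairs with no protein-coding gene between them (Wnt6 and Wnt10a, Wnt3a and Wnt9a, Wnt9b and Wnt3, Wnt10b and Wnt1), and of these Wnt9a and Wnt10b passed the filter and the other 6 did not.

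**Figure D1:**
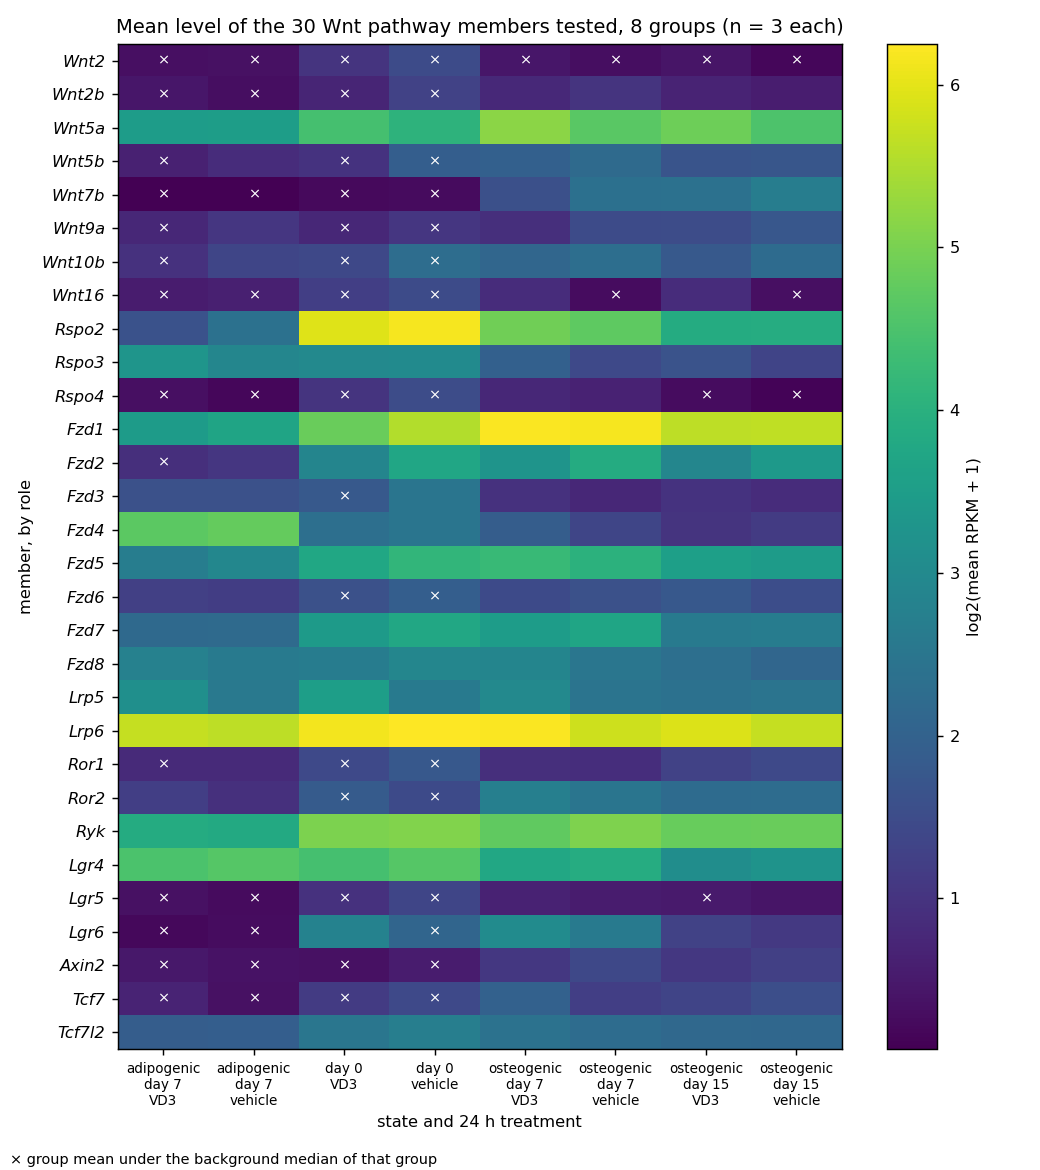
Mean level of the 30 tested members (rows, by role) in the 8 groups (columns, n = 3 libraries each), coloured by log2(mean RPKM + 1), with a cross where the group mean is under that group's background median. Lrp6, Fzd1, Rspo2, Ryk, Wnt5a and Lgr4 are the brightest rows, Fzd4 is brightest in the adipogenic columns, and most crosses lie in the day 0 and adipogenic columns.

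Promoter letters are shown for Fzd4 and Fzd1, which made up the largest share of the family's summed RPKM in adipogenic and in osteogenic cells and moved in opposite directions between them, and for Axin2, the feedback target. Each runs from 250 bases before to 50 bases after the start of the RefSeq gene on GRCm38.p6, and capitals mark matches to 3 motifs searched on both strands: CTTTGA, the core that Tcf and Lef factors bind, TTGCNNAA, a C/EBP motif, and AGGTCA, a half-site of nuclear receptors. The Fzd4 window is chr7:89404116-89404415 on the plus strand, the Fzd1 window chr5:4758167-4758466 on the minus strand and the Axin2 window chr11:108920099-108920398 on the plus strand.
Fzd4: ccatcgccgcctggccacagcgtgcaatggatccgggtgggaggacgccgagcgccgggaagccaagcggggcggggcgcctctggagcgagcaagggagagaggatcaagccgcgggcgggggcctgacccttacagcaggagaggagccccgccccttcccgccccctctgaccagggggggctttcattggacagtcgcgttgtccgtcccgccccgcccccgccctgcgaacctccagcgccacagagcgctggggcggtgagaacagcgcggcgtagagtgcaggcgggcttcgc
Fzd1: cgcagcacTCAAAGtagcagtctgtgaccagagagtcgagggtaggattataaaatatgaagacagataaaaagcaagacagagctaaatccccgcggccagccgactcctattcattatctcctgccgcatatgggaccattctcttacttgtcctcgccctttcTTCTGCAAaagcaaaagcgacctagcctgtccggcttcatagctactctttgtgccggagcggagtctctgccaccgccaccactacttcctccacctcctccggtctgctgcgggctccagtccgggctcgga
Axin2: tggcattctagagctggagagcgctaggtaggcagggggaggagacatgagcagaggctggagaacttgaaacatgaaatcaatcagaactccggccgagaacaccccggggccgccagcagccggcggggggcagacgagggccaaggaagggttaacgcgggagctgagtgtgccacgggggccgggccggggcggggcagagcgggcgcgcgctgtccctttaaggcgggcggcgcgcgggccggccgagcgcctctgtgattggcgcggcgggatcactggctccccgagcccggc
The Fzd1 window held 1 match to the Tcf/Lef core and 1 to the C/EBP motif, and the windows of Fzd4 and Axin2 held none of the 3. Over 32851 promoters of this length in the RefSeq table, 16.0% held the Tcf/Lef core, 10.8% the C/EBP motif and 16.3% the half-site. Of the 46 members, 33 had a promoter there (41 promoters in all), and 5, 3 and 2 of these promoters held the core, the C/EBP motif and the half-site. A match is a description of the letters and not a binding site.

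The first question was how these genes differed between differentiated and undifferentiated cells, and vehicle libraries answered it. The test was limma on log2(RPKM + 1) over all 21097 genes passing the filter, and a gene was called where its Benjamini-Hochberg adjusted p was below 0.05. That scale understates the change of low genes. In adipogenic day 7 against day 0 cells, 24 of the 30 tested members were called, 1 higher (Fzd4) and 23 lower, where 78.6% of all tested genes were called, 13.2% higher and 65.5% lower. Osteogenic day 7 against day 0 cells had 18 called members, 6 higher and 12 lower, where 64.0% of all genes were called, 13.6% higher and 50.4% lower. Osteogenic day 15 against day 0 cells had 23, 5 higher and 18 lower, where 70.9% of all genes were called, 17.5% higher and 53.4% lower. The members' shares lie near those of all genes, and the 3 comparisons share the day 0 vehicle libraries. In bulk libraries, fewer cells of a type and less RNA per cell cannot be told apart.

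The split between higher and lower calls depended on the scaling in comparisons with day 0. Rescaling by median ratio shifted the median log2 difference of all genes by 0.35 to 0.44, quantile normalization by 0.53 to 0.77 and subtraction of each library's background median by 1.11 to 1.26. With median-ratio rescaling, members called higher and lower numbered 4 and 15 in adipogenic day 7, 11 and 10 in osteogenic day 7 and 6 and 13 in osteogenic day 15 cells. Quantile normalization gave 5 and 9, 12 and 5, and 12 and 9 in the same order, and background subtraction gave 6 and 7, 16 and 4, and 14 and 5 of 25 tested. Each call was therefore read under up to 10 other settings (pseudocount, filters, scaling, replicate term, background subtraction, largest transcript, and VD3-treated libraries of the same states) and with each of the 6 libraries left out. The filter at 5 RPKM left 17 members and background subtraction 25, so lower members, Axin2 and Wnt9a among them, were read under fewer. Calls that held in all the settings that could be run were those of Rspo2, Fzd1, Fzd2, Fzd4, Fzd5, Fzd7 and Ryk in adipogenic cells. In osteogenic day 7 cells they were those of Wnt5a, Wnt7b, Rspo2, Rspo3, Fzd1, Lgr4 and Axin2, and in osteogenic day 15 cells those of Wnt5a, Wnt7b, Wnt9a, Rspo2, Rspo3, Fzd7, Lgr4 and Axin2.

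Between the differentiated states the scaling mattered less. In adipogenic against osteogenic day 7 cells 19 members were called, 4 higher and 15 lower, where 37.8% of all genes were called, 12.4% higher and 25.4% lower. Of these calls 15 held in all 6 leave-outs and in every setting that could be run, 9 for most members and 8 for Wnt5b, Wnt10b and Axin2. Median-ratio rescaling gave 4 higher and 15 lower, and quantile normalization and background subtraction each gave 4 and 17. Among the calls of all genes 32.9% were higher, and 46.2%, 43.6% and 28.3% with these steps in turn. Osteogenic day 15 against day 7 cells had 7 called members, all lower, where 13.3% of all genes were called, 6.87% higher and 6.47% lower. Of these 7 calls 5 held throughout, and median-ratio rescaling and quantile normalization gave 0 higher and 7 lower, background subtraction 1 and 6. Here 51.5% of the calls of all genes were higher, and 40.7%, 46.7% and 51.1% with these steps in turn.

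Among the ligands, Wnt5a, best known for signalling without beta-catenin, was the most abundant in every group. It measured 10.3, 10.7 and 10.3 RPKM in adipogenic day 7 vehicle libraries, 15.8, 16 and 15.5 RPKM at day 0, 22.4, 25.1 and 25.6 RPKM in osteogenic day 7 and 19.6, 22.5 and 24.4 RPKM in osteogenic day 15 libraries. Adipogenic libraries were all below and osteogenic libraries all above those of day 0. Wnt5a rose 1.54-fold in osteogenic day 7 against day 0 cells (log2 difference 0.59 ± 0.08 SE, adjusted p = 9.71e-06) and 1.4-fold in osteogenic day 15 cells (log2 difference 0.46 ± 0.08 SE, adjusted p = 6.51e-05). Between osteogenic days 15 and 7 its libraries overlapped (log2 difference -0.13 ± 0.08 SE, adjusted p = 0.387). In adipogenic cells it was 2.33-fold lower than in osteogenic day 7 cells (log2 difference -1.15 ± 0.08 SE, adjusted p = 4.81e-11). Its fall against day 0 (log2 difference -0.55 ± 0.08 SE, adjusted p = 5.75e-06) was not called with background subtraction, and the difference became 0.035 with median-ratio rescaling. Wnt5a made up 60.4 ± 2.39% of the summed RPKM of all Wnt genes in adipogenic, 45.5 ± 4.56% in day 0, 58.9 ± 0.622% in osteogenic day 7 and 57.0 ± 0.426% in osteogenic day 15 vehicle libraries (SD, n = 3 each). All other Wnt genes were under the background median at day 0, so the day 0 share cannot be read as a makeup of ligands. With VD3 at day 0 it was 61.7% and 62.2% in replicates 1 and 3, and 83.0% in replicate 2, the library of low background.

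Wnt7b, a ligand of the beta-catenin arm, was seen in osteogenic cells. Its levels were 0.035, 0.047 and 0.089 RPKM in adipogenic day 7 and 0.069, 0.265 and 0.245 RPKM in day 0 vehicle libraries, under the background of both states. They were 2.64, 5.45 and 4.24 RPKM in osteogenic day 7 and 5.15, 4.87 and 6.33 RPKM in osteogenic day 15 vehicle libraries. No osteogenic library overlapped with a library of day 0 or of adipogenic cells. Wnt7b rose against day 0 in osteogenic day 7 (log2 difference 2.06 ± 0.20 SE, adjusted p = 8.1e-08) and day 15 cells (log2 difference 2.43 ± 0.20 SE, adjusted p = 2.78e-09), and was lower in adipogenic than in osteogenic day 7 cells (log2 difference -2.23 ± 0.20 SE, adjusted p = 2.37e-09).

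The remaining 6 tested ligands stayed under 5 RPKM. Group means ran from 0.928 to 3.95 RPKM for Wnt10b, from 0.549 to 3.63 RPKM for Wnt5b and from 0.682 to 2.38 RPKM for Wnt9a. Wnt10b, known from mice for restraining adipocyte formation, averaged 1.55 ± 0.305 RPKM in adipogenic and 3.95 ± 0.64 RPKM in osteogenic day 7 vehicle cells (log2 difference -0.95 ± 0.18 SE, adjusted p = 0.000154). Wnt5b, a close relative of Wnt5a, averaged 0.809 ± 0.165 RPKM in adipogenic and 3.63 ± 0.513 RPKM in osteogenic day 7 vehicle cells (log2 difference -1.36 ± 0.18 SE, adjusted p = 1.33e-06). Both were under the day 0 background in day 0 cells, and their lower calls in adipogenic against day 0 cells turned direction with quantile normalization and background subtraction. Wnt9a averaged 2.38 ± 0.527 RPKM in osteogenic day 15 and 1.09 ± 0.323 RPKM in day 0 vehicle cells (log2 difference 0.69 ± 0.20 SE, adjusted p = 0.00431). Wnt2, Wnt2b and Wnt16 reached at most 1.82, 1.46 and 1.81 RPKM in a group, in each case day 0 with vehicle and under its background.

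R-spondin genes carried some of the widest differences of the set. Rspo2 measured 3.75, 3.96 and 4.93 RPKM in adipogenic day 7, 74.5, 75 and 62.4 RPKM in day 0, 27.9, 24.7 and 24 RPKM in osteogenic day 7 and 13, 14.1 and 14.3 RPKM in osteogenic day 15 vehicle libraries. The 4 states did not overlap, with day 0 highest and adipogenic cells lowest. Rspo2 fell to 4.21 ± 0.634 RPKM in adipogenic cells, against 70.6 ± 7.11 RPKM at day 0, 16.8-fold lower (log2 difference -3.78 ± 0.09 SE, adjusted p = 4.37e-19). Osteogenic day 7 cells had 2.77-fold lower levels than day 0 (log2 difference -1.43 ± 0.09 SE, adjusted p = 1.44e-10), and osteogenic day 15 cells 5.12-fold lower levels (log2 difference -2.27 ± 0.09 SE, adjusted p = 1.84e-14). It was lower in osteogenic day 15 than day 7 cells (log2 difference -0.84 ± 0.09 SE, adjusted p = 8.46e-07), and lower in adipogenic than in osteogenic day 7 cells (log2 difference -2.35 ± 0.09 SE, adjusted p = 1.09e-15).

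Rspo3, a second ligand of the Lgr receptors, had another order. It measured 6.54, 6.58 and 6.54 RPKM in adipogenic day 7, 6.69, 6.61 and 8.37 RPKM in day 0, 1.27, 2.02 and 1.81 RPKM in osteogenic day 7 and 1.36, 1.81 and 1.41 RPKM in osteogenic day 15 vehicle libraries. Osteogenic libraries all lay below those of adipogenic and day 0 cells. Rspo3 fell in osteogenic day 7 (log2 difference -1.61 ± 0.13 SE, adjusted p = 4.3e-09) and day 15 cells (log2 difference -1.70 ± 0.13 SE, adjusted p = 7.83e-10) against day 0, and was 3.86-fold higher in adipogenic than in osteogenic day 7 cells (log2 difference 1.5 ± 0.13 SE, adjusted p = 1.3e-09). The difference between adipogenic and day 0 cells did not pass (log2 difference -0.12 ± 0.13 SE, adjusted p = 0.413). Rspo4 averaged 0.102 to 1.85 RPKM over the groups and was under background in 6 of them.

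**Figure D2:**
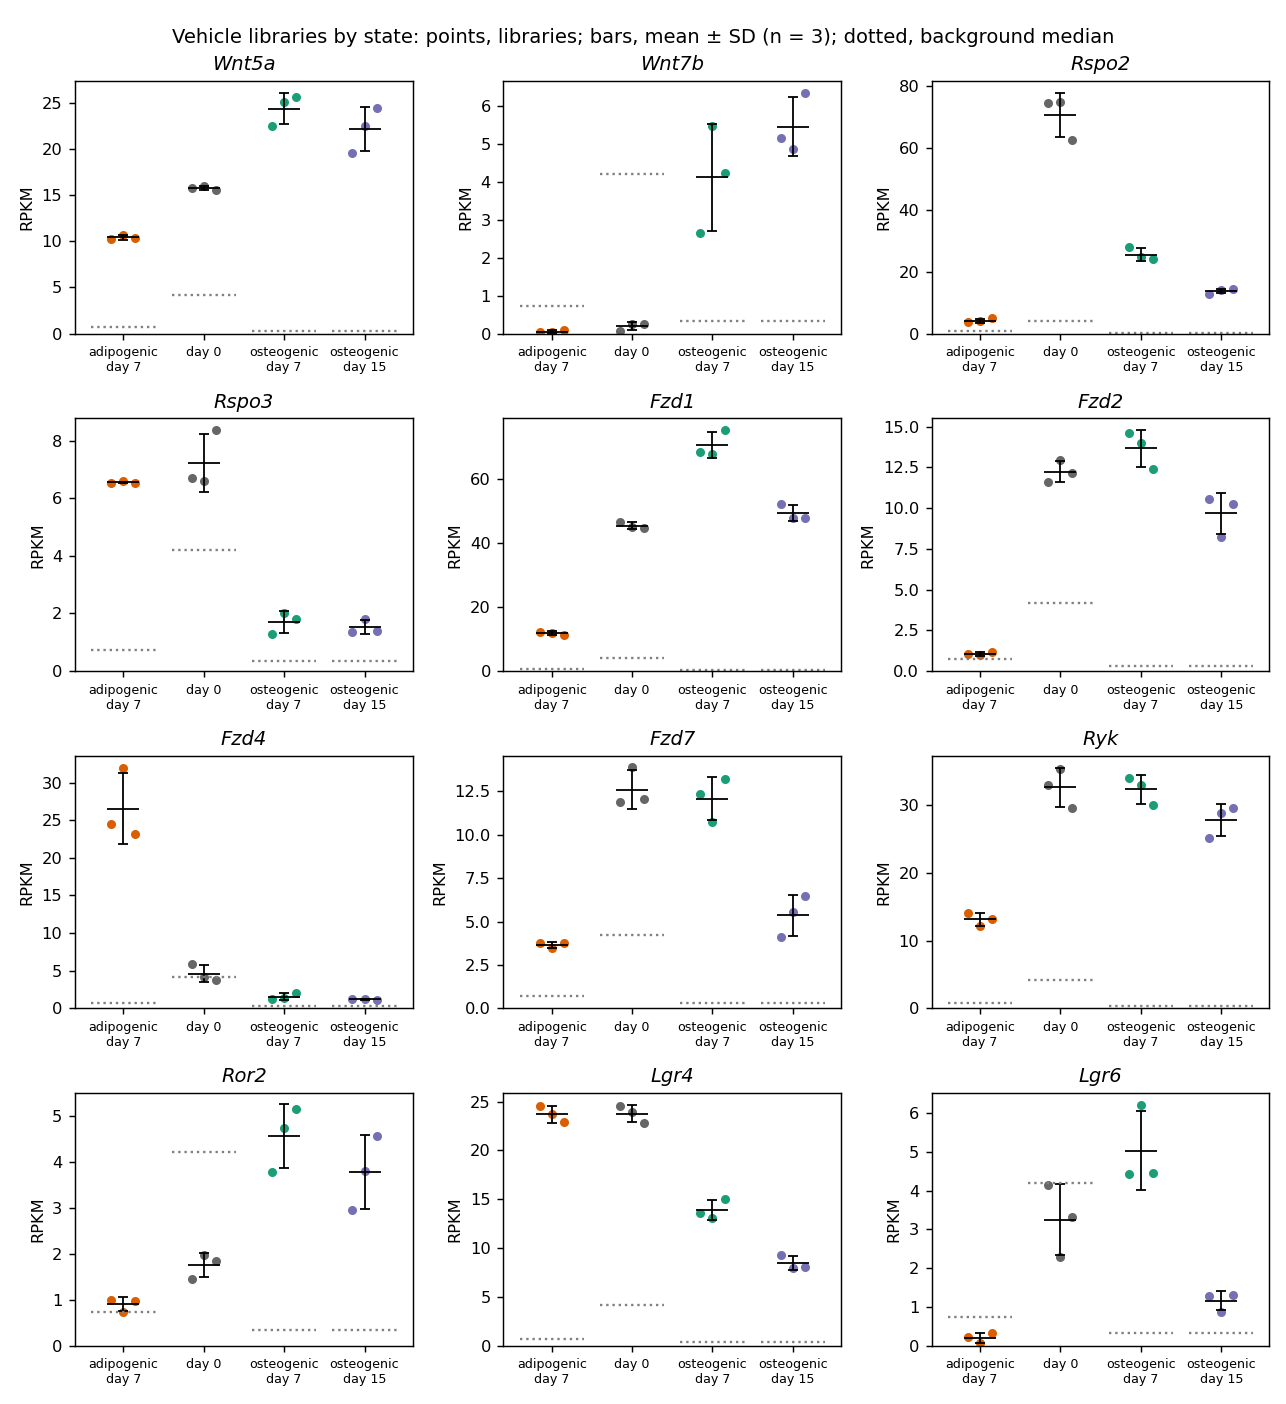
RPKM of 12 members in the vehicle libraries of the 4 states, one panel a member, with points for libraries, bars for the mean ± SD (n = 3) and a dotted line for the background median of the state. Rspo2 is lower than at day 0 in every differentiated state, Wnt5a and Wnt7b sit highest in osteogenic cells, and Fzd4 in adipogenic cells lies between 23.1 and 32.0 RPKM while no other state passes 5.86 RPKM.

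Of the Frizzled receptors, Fzd4 was called higher in adipogenic than in day 0 cells and Fzd1, Fzd2, Fzd5 and Fzd7 were called lower, under every scaling. Fzd4 measured 24.5, 32 and 23.1 RPKM in adipogenic day 7, 5.86, 4.19 and 3.73 RPKM in day 0, 1.21, 1.43 and 2.08 RPKM in osteogenic day 7 and 1.28, 1.23 and 1.09 RPKM in osteogenic day 15 vehicle libraries. Adipogenic libraries stood apart from the rest. Fzd4 rose 5.78-fold in adipogenic against day 0 cells (log2 difference 2.30 ± 0.16 SE, adjusted p = 4.67e-11) and was 16.9-fold higher in adipogenic than in osteogenic day 7 cells (log2 difference 3.42 ± 0.16 SE, adjusted p = 3.25e-14). The day 0 mean of Fzd4 was 4.59 RPKM, close to the background median of 4.21 RPKM. Its fold against day 0 therefore rests on a level near background. Its lower level in osteogenic day 7 (-1.12) and day 15 cells (-1.33, log2 against day 0) turned to 0.42 and 0.17 with background subtraction.

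Fzd1 ran the other way. It measured 12.3, 11.9 and 11.2 RPKM in adipogenic day 7, 46.5, 44.9 and 44.7 RPKM in day 0, 68.2, 67.8 and 75 RPKM in osteogenic day 7 and 52.1, 47.9 and 47.7 RPKM in osteogenic day 15 vehicle libraries. It was lowest in adipogenic and highest in osteogenic day 7 cells, without overlap. Fzd1 fell 3.85-fold in adipogenic against day 0 cells (log2 difference -1.86 ± 0.08 SE, adjusted p = 9.76e-15) and rose 1.55-fold in osteogenic day 7 cells (log2 difference 0.62 ± 0.08 SE, adjusted p = 5.22e-06). It was lower in osteogenic day 15 than day 7 cells (log2 difference -0.51 ± 0.08 SE, adjusted p = 0.000108), and 5.96-fold lower in adipogenic than in osteogenic day 7 cells (log2 difference -2.48 ± 0.08 SE, adjusted p = 4.28e-17).

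The makeup of the Frizzled family differed accordingly, with summed Frizzled RPKM of 58.2 ± 5.28 in adipogenic, 106 ± 2.86 in day 0, 121 ± 6.63 in osteogenic day 7 and 81.8 ± 2.08 in osteogenic day 15 vehicle libraries. Fzd4 made up 45.4 ± 4.27% of that sum in adipogenic, 4.30 ± 0.948% in day 0, 1.29 ± 0.303% in osteogenic day 7 and 1.47 ± 0.124% in osteogenic day 15 libraries. Fzd1 made up 20.3 ± 1.44% in adipogenic, 42.7 ± 0.699% in day 0, 58.2 ± 0.469% in osteogenic day 7 and 60.1 ± 2.26% in osteogenic day 15 libraries (SD, n = 3 each). A factor that multiplies all values of a library leaves these shares as they are. A background added to all genes does not, and the day 0 mean of Fzd4 was close to the background median.

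Fzd2 and Fzd7, which like Fzd1 belong to one branch of the family, were also lowest in adipogenic cells. Fzd2 measured 1.01, 0.974 and 1.18 RPKM in adipogenic day 7, 11.6, 12.9 and 12.2 RPKM in day 0, 14.6, 14 and 12.4 RPKM in osteogenic day 7 and 10.6, 8.25 and 10.3 RPKM in osteogenic day 15 vehicle libraries. It fell 11.6-fold in adipogenic against day 0 cells (log2 difference -2.69 ± 0.11 SE, adjusted p = 6.51e-15), and its mean there was close to the background median of adipogenic libraries. The osteogenic day 7 and day 0 libraries overlapped (log2 difference 0.15 ± 0.11 SE, adjusted p = 0.27), and the difference of osteogenic day 15 from day 0 (log2 difference -0.31, adjusted p = 0.018) turned direction under 4 settings and was not called without day 0 replicate 2 or osteogenic day 15 replicate 2 (adjusted p up to 0.126). Fzd2 in osteogenic day 15 against day 7 cells (log2 difference -0.46, adjusted p = 0.00751) had an adjusted p of 0.0669 without osteogenic day 15 replicate 2.

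Fzd7 measured 3.75, 3.47 and 3.76 RPKM in adipogenic day 7, 11.9, 13.9 and 12.1 RPKM in day 0, 12.4, 10.7 and 13.2 RPKM in osteogenic day 7 and 4.12, 5.55 and 6.45 RPKM in osteogenic day 15 vehicle libraries. It fell in adipogenic cells against day 0 (log2 difference -1.54 ± 0.13 SE, adjusted p = 1.62e-09) and in osteogenic day 15 cells against day 0 (log2 difference -1.11 ± 0.13 SE, adjusted p = 8.47e-07) and against day 7 (log2 difference -1.05 ± 0.13 SE, adjusted p = 6.23e-06). The day 0 and osteogenic day 7 libraries overlapped. Fzd5, with 2 transcripts, measured 6.99, 6.76 and 6.06 RPKM in adipogenic day 7, 18.9, 16.8 and 14.5 RPKM in day 0, 15, 13.6 and 17.9 RPKM in osteogenic day 7 and 9.86, 10.6 and 9.88 RPKM in osteogenic day 15 vehicle libraries. It fell in adipogenic against day 0 cells (log2 difference -1.22 ± 0.10 SE, adjusted p = 6.99e-10). It was lower at osteogenic day 15 than day 7 (log2 difference -0.56, adjusted p = 0.00037), a call that was lost with its largest transcript alone (log2 -0.55, adjusted p = 0.455), as was that of adipogenic against osteogenic day 7 cells (-1.11 for the sum, -0.81 for the largest transcript).

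Fzd8 moved less, with 5.55, 4.93 and 4.53 RPKM in adipogenic day 7, 6.1, 6.89 and 6.59 RPKM in day 0, 4.39, 5.22 and 4.45 RPKM in osteogenic day 7 and 3.42, 2.85 and 3.63 RPKM in osteogenic day 15 vehicle libraries. Its log2 differences from day 0 were -0.33, -0.41 and -0.81 in adipogenic day 7, osteogenic day 7 and osteogenic day 15 cells, each past the threshold, and each turned direction with background subtraction. The adipogenic call was lost without any 1 library but adipogenic replicate 1 (adjusted p up to 0.151), and the osteogenic day 7 call without day 0 replicate 2 or osteogenic day 7 replicate 1 or 3 (up to 0.067). Fzd3 averaged 0.70 to 4.56 RPKM and Fzd6 1.29 to 2.79 RPKM over the groups, highest in day 0 vehicle cells, where Fzd6 was under background and Fzd3 close to it.

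Of the co-receptors, Lrp6 was the most abundant member of that role in every group and Lrp5 showed no called difference between states. Lrp6 measured 47.4, 49.2 and 48.3 RPKM in adipogenic day 7, 76.9, 79.2 and 69.2 RPKM in day 0, 53.6, 50.4 and 56.6 RPKM in osteogenic day 7 and 47.5, 54.7 and 52.7 RPKM in osteogenic day 15 vehicle libraries. Day 0 libraries lay above the others. The log2 differences from day 0 were -0.62, -0.48 and -0.53 in adipogenic day 7, osteogenic day 7 and osteogenic day 15 cells, each past the threshold. With median-ratio rescaling they were 0.00049, -0.056 and -0.14, none of them called. Lrp5 measured 4.64, 5.33 and 4.92 RPKM in adipogenic day 7, 5.91, 5.41 and 3.91 RPKM in day 0, 4.99, 3.6 and 4.74 RPKM in osteogenic day 7 and 5.58, 3.76 and 4.17 RPKM in osteogenic day 15 vehicle libraries, and these overlapped.

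Ryk, a Wnt-binding receptor with a catalytically inactive kinase domain, measured 14.1, 12.1 and 13.2 RPKM in adipogenic day 7, 32.9, 35.4 and 29.6 RPKM in day 0, 34, 33 and 29.9 RPKM in osteogenic day 7 and 25.1, 28.8 and 29.5 RPKM in osteogenic day 15 vehicle libraries. Adipogenic libraries were below all others. Ryk fell 2.48-fold against day 0 (log2 difference -1.25 ± 0.09 SE, adjusted p = 8.46e-11) and was 2.46-fold lower than in osteogenic day 7 cells (log2 difference -1.24 ± 0.09 SE, adjusted p = 8.6e-11). Its call in osteogenic day 15 against day 0 cells (log2 difference -0.22, adjusted p = 0.0333) was lost without day 0 replicate 1, day 0 replicate 2 or osteogenic day 15 replicate 1 (adjusted p up to 0.17) and turned direction with median-ratio rescaling.

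Ror2, a receptor tyrosine kinase that binds Wnt5a, measured 0.998, 0.738 and 0.98 RPKM in adipogenic day 7, 1.46, 1.97 and 1.84 RPKM in day 0, 3.79, 4.74 and 5.14 RPKM in osteogenic day 7 and 2.96, 3.8 and 4.57 RPKM in osteogenic day 15 vehicle libraries. Osteogenic libraries were above those of adipogenic cells without overlap, as for Wnt5a. Ror2 was 5.03-fold lower in adipogenic than in osteogenic day 7 cells (log2 difference -1.54 ± 0.19 SE, adjusted p = 4.18e-07). In day 0 cells it was under background. Its higher levels in osteogenic day 7 (log2 difference 1.01, adjusted p = 0.000142) and day 15 cells (log2 difference 0.79, adjusted p = 0.000993) were not called with day 0 VD3 replicate 2, a library of low background, as the day 0 library. Against day 0 its lower level in adipogenic cells (log2 difference -0.53, adjusted p = 0.0148) turned direction with quantile normalization and background subtraction, and was not called without day 0 replicate 2 or adipogenic replicate 2 (adjusted p up to 0.0556). Ror1 averaged 0.74 to 2.4 RPKM over the groups.

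Among the R-spondin receptors, Lgr4 was the most abundant in every group and was lower in osteogenic cells. It measured 24.6, 23.7 and 22.9 RPKM in adipogenic day 7, 24.5, 24 and 22.8 RPKM in day 0, 13.6, 13.1 and 15 RPKM in osteogenic day 7 and 9.25, 7.98 and 8.08 RPKM in osteogenic day 15 vehicle libraries. Adipogenic and day 0 libraries overlapped (log2 difference -0.0025 ± 0.10 SE, adjusted p = 0.983), and both osteogenic groups lay below them. Lgr4 fell 1.71-fold in osteogenic day 7 (log2 difference -0.73 ± 0.10 SE, adjusted p = 6.78e-06) and 2.82-fold in osteogenic day 15 cells (log2 difference -1.39 ± 0.10 SE, adjusted p = 2.1e-10) against day 0. It was lower at osteogenic day 15 than day 7 (log2 difference -0.66 ± 0.10 SE, adjusted p = 4.28e-05), and 1.71-fold higher in adipogenic than in osteogenic day 7 cells (log2 difference 0.73 ± 0.10 SE, adjusted p = 1.36e-06).

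Lgr6 was under background in adipogenic cells and present in osteogenic day 7 cells. It measured 0.23, 0.067 and 0.326 RPKM in adipogenic day 7, 4.13, 2.3 and 3.33 RPKM in day 0, 4.42, 6.21 and 4.46 RPKM in osteogenic day 7 and 1.29, 0.873 and 1.3 RPKM in osteogenic day 15 vehicle libraries. Lgr6 was lower in adipogenic than in osteogenic day 7 cells (log2 difference -2.31 ± 0.18 SE, adjusted p = 3.85e-10) and 4.35-fold lower in osteogenic day 15 than day 7 cells (log2 difference -1.48 ± 0.18 SE, adjusted p = 5.36e-06). Day 0 vehicle cells were under background for Lgr6. The osteogenic day 7 call against day 0 (log2 difference 0.51, adjusted p = 0.0196) was lost without day 0 replicate 2 or osteogenic day 7 replicate 2 (adjusted p up to 0.134), and the difference of osteogenic day 15 from day 0 (log2 difference -0.96, adjusted p = 0.000131) turned direction with quantile normalization and background subtraction. Lgr5 averaged 0.186 to 1.59 RPKM over the groups.

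Axin2, the target gene of the set, was low everywhere and highest in osteogenic cells. It measured 0.084, 0.236 and 0.582 RPKM in adipogenic day 7, 0.277, 0.869 and 0.264 RPKM in day 0, 1.55, 1.86 and 1.62 RPKM in osteogenic day 7 and 1.29, 1.36 and 1.41 RPKM in osteogenic day 15 vehicle libraries. Osteogenic libraries of both days lay above every adipogenic and day 0 library. Axin2 rose against day 0 in osteogenic day 7 (log2 difference 0.89 ± 0.20 SE, adjusted p = 0.000786) and day 15 cells (log2 difference 0.70 ± 0.20 SE, adjusted p = 0.00433) and was lower in adipogenic than in osteogenic day 7 cells (log2 difference -1.06 ± 0.20 SE, adjusted p = 0.000166). Adipogenic and day 0 cells were under background for this gene.

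Of the transcription factors, Tcf7l2 was the one with a mean over the background median in all groups, as a sum of 8 transcripts. Summing also adds up the background of each transcript, and its single transcripts were not set against the background. Only in osteogenic groups were all libraries of Tcf7l2 above the 95th percentile of the background genes. It summed 8 transcripts and measured 2.2, 3.44 and 2.78 RPKM in adipogenic day 7, 5.85, 5.0 and 5.7 RPKM in day 0, 3.55, 3.53 and 4.25 RPKM in osteogenic day 7 and 3.67, 3.44 and 2.98 RPKM in osteogenic day 15 vehicle libraries. Its lower calls in adipogenic (log2 difference -0.79, adjusted p = 0.00131) and osteogenic day 15 cells (log2 difference -0.58, adjusted p = 0.0126) against day 0 both turned direction with quantile normalization and background subtraction, and neither was called with the largest transcript alone. Tcf7 averaged 0.274 to 3.01 RPKM over the groups. It was lower in adipogenic than in osteogenic day 7 vehicle cells (log2 difference -0.86 ± 0.26 SE, adjusted p = 0.0114), with an adjusted p of 0.0764 without osteogenic day 7 replicate 1.

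Markers of other states moved with these differences. Summed stromal markers lay between 38.6 and 42.6 RPKM in adipogenic, 254 and 289 RPKM in day 0, 239 and 255 RPKM in osteogenic day 7 and 173 and 190 RPKM in osteogenic day 15 vehicle libraries. Summed adipocyte markers lay between 391 and 443 RPKM in day 0, 149 and 159 RPKM in osteogenic day 7 and 47.4 and 48.6 RPKM in osteogenic day 15 vehicle libraries. Adipogenic vehicle cells also held the osteoblast marker Ibsp at a mean of 104 RPKM, against 264 RPKM in osteogenic day 7 vehicle cells. Their part in the values above was not tested.

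The second question was how 24 hours of VD3 changed these genes in each state. At day 0, 9 of the 30 tested members were called with VD3 against vehicle, 3 higher and 6 lower, where 15.0% of all genes were called, 3.98% higher and 11.0% lower. Osteogenic day 7 cells had 7 called members, 4 higher and 3 lower, where 5.26% of all genes were called, 2.91% higher and 2.35% lower. Osteogenic day 15 cells had 2, Wnt5a higher and Fzd2 lower, where 0.773% of all genes were called, 0.526% higher and 0.246% lower. Adipogenic day 7 cells had 2, Lrp5 higher and Rspo2 lower, where 2.08% of all genes were called, 1.51% higher and 0.574% lower. With median-ratio rescaling the higher and lower calls numbered 3 and 4 at day 0, 0 and 2 in osteogenic day 7, 0 and 0 in osteogenic day 15 and 0 and 1 in adipogenic day 7 cells. With quantile normalization they numbered 3 and 3, 2 and 2, 1 and 0, and 0 and 1 in the same order, and with background subtraction 3 and 2, 3 and 2, 0 and 0, and 0 and 1. At day 0 these 3 steps shifted the median log2 difference of all genes by 0.19, 0.29 and 0.44, and in the other states by less than 0.1. Among the calls of all genes at day 0, 26.5% were higher, and 64.1%, 57.7% and 68.4% with the 3 steps in turn. This share was 55.3%, and 39.0%, 53.7% and 49.6%, in osteogenic day 7 cells. It was 68.1%, and 82.6%, 74.1% and 68.3%, in osteogenic day 15 cells. In adipogenic day 7 cells it was 72.4%, and 64.0%, 65.0% and 65.7%. Summed osteoblast markers lay between 43.0 and 54.2 RPKM with VD3 and 130 and 153 RPKM with vehicle in adipogenic cells. Their sum lay between 537 and 629 RPKM with VD3 and 709 and 772 RPKM with vehicle in osteogenic day 7 cells. In osteogenic day 15 cells it lay between 414 and 453 RPKM with VD3 and 774 and 850 RPKM with vehicle. Of these markers, Ibsp averaged 3.23 RPKM with VD3 and 104 RPKM with vehicle in adipogenic cells. It averaged 89.2 and 264 RPKM in osteogenic day 7 and 238 and 596 RPKM in osteogenic day 15 cells. Alpl, Bglap, Col1a1 and Dmp1 averaged higher with VD3 in adipogenic cells. So did Alpl, Bglap, Bglap2 and Col1a1 in osteogenic day 7 cells, and Bglap and Bglap2 in osteogenic day 15 cells. Summed adipocyte markers lay between 506 and 516 RPKM with VD3 and 391 and 443 RPKM with vehicle at day 0. Their sum lay between 209 and 236 RPKM with VD3 and 149 and 159 RPKM with vehicle in osteogenic day 7 cells. In osteogenic day 15 cells it lay between 53.3 and 61.3 RPKM with VD3 and 47.4 and 48.6 RPKM with vehicle. None of these pairs overlapped. In adipogenic cells the sum lay between 26750 and 30310 RPKM with VD3 and 30040 and 32040 RPKM with vehicle. The adipocyte marker that was higher with VD3 at day 0 was Lpl, with means of 365 RPKM with VD3 and 235 RPKM with vehicle. Means of Adipoq (16.4 and 26.4 RPKM), Fabp4 (36.7 and 51.0 RPKM), Cebpa (60.2 and 72.4 RPKM), Plin1, Cidec and Cfd were lower with VD3. Pparg averaged 31.4 and 32.0 RPKM. Summed stromal markers (8 genes) lay between 179 and 199 RPKM with VD3 and 254 and 289 RPKM with vehicle at day 0. Their part in the values below was not tested.

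**Figure D3:**
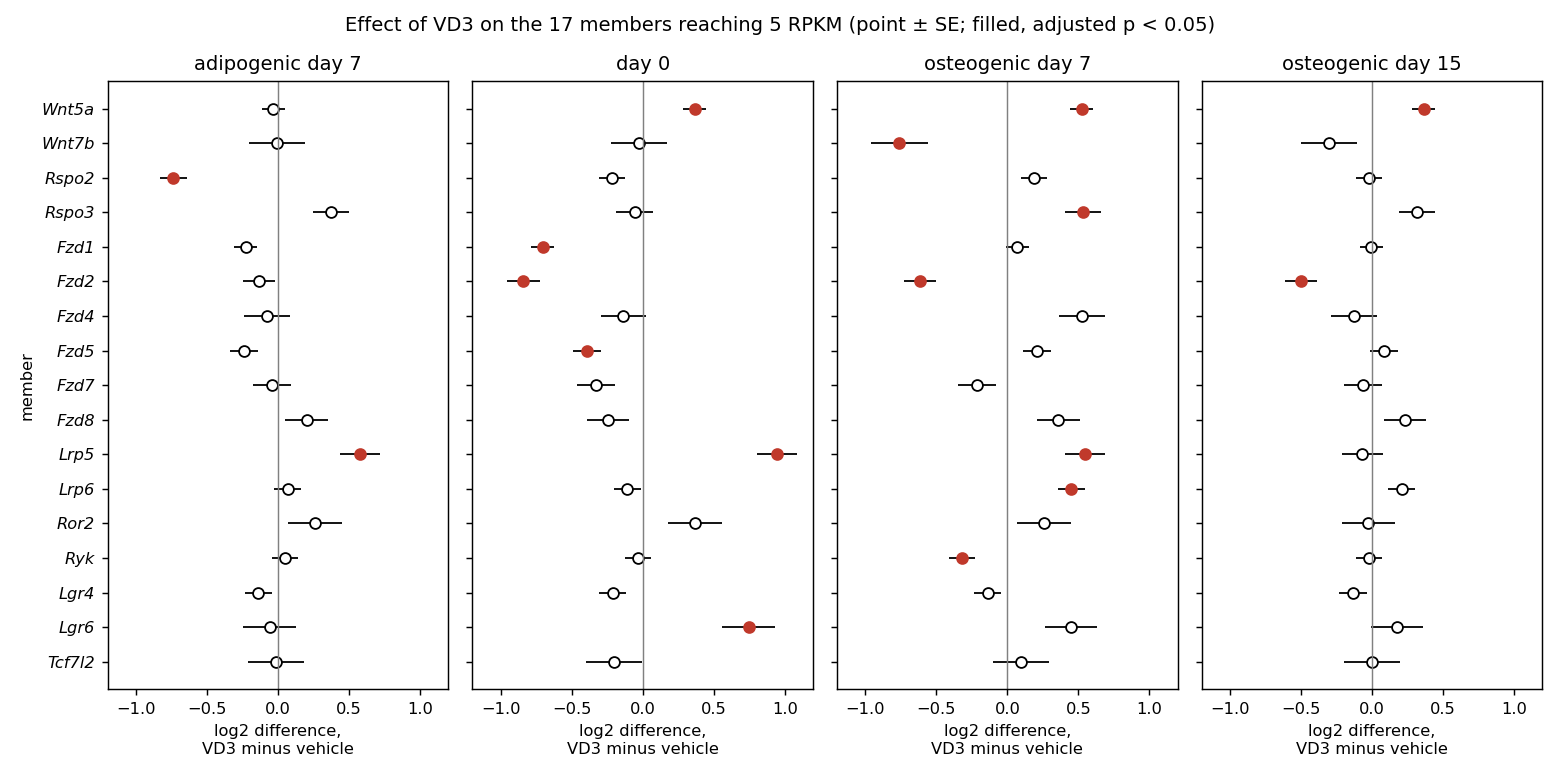
Log2 difference on the log2(RPKM + 1) scale, VD3 minus vehicle (horizontal axis, point ± SE), of the 17 members reaching 5 RPKM in a group, one panel a state, with filled points where the adjusted p was below 0.05. Wnt5a lies right of 0 at day 0 and in both osteogenic panels, Fzd2 lies left of 0 in the same panels, Lrp5 lies right of 0 in 3 panels and Rspo2 lies furthest left in adipogenic cells.

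Wnt5a was higher with VD3 in 3 of the 4 states. At day 0 it measured 21.8, 21.6 and 18.7 RPKM with VD3, against 15.8, 16 and 15.5 RPKM with vehicle (log2 difference 0.37 ± 0.08 SE, adjusted p = 0.00385). Osteogenic day 7 cells had 36.6, 34.6 and 35 RPKM with VD3, against 22.4, 25.1 and 25.6 RPKM with vehicle (log2 difference 0.52 ± 0.08 SE, adjusted p = 0.000189). The VD3 and vehicle libraries did not overlap in either state, and the osteogenic day 7 call was lost with median-ratio rescaling (log2 0.41, adjusted p = 0.116). Osteogenic day 15 cells had 28.5, 28.7 and 28.9 RPKM with VD3, against 19.6, 22.5 and 24.4 RPKM with vehicle (log2 difference 0.36 ± 0.08 SE, adjusted p = 0.0308), a call lost in 5 of 6 leave-outs, all but that of vehicle replicate 3 (adjusted p up to 0.289). In adipogenic cells the libraries overlapped, with 10.0, 9.77 and 10.8 RPKM with VD3 and 10.3, 10.7 and 10.3 RPKM with vehicle. The VD3 effect in adipogenic minus that in osteogenic day 7 cells was -0.56 ± 0.12 on the log2 scale (SE, adjusted p = 0.00978), a call lost with background subtraction and with median-ratio rescaling.

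Lrp5 was higher with VD3 at day 0, with 10.6, 11.7 and 9.55 RPKM, against 5.91, 5.41 and 3.91 RPKM with vehicle, 2.09-fold (log2 difference 0.95 ± 0.14 SE, adjusted p = 6.71e-05). This call held in all 8 settings and 6 leave-outs. The day 0 vehicle mean of Lrp5 was 5.07 RPKM, close to the background median of 4.21 RPKM, so this fold rests on a level near background. Osteogenic day 7 libraries had 8.21, 6.43 and 6.22 RPKM with VD3 and 4.99, 3.6 and 4.74 RPKM with vehicle (log2 difference 0.55 ± 0.14 SE, adjusted p = 0.0225), and adipogenic libraries had 8.08, 7.71 and 7.88 RPKM with VD3 and 4.64, 5.33 and 4.92 RPKM with vehicle (log2 difference 0.58 ± 0.14 SE, adjusted p = 0.0313). Both of these calls were lost with median-ratio rescaling, quantile normalization and background subtraction. The osteogenic one was also lost without vehicle replicate 2 or VD3 replicate 1 (adjusted p up to 0.164), and the adipogenic one without any 1 of its 6 libraries (adjusted p 0.0597 to 0.154). At osteogenic day 15 Lrp5 measured 4.19, 4.0 and 4.42 RPKM with VD3 and 5.58, 3.76 and 4.17 RPKM with vehicle, and these overlapped.

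Fzd2 was lower with VD3 at day 0 and in both osteogenic states. At day 0 it measured 6.71, 5.77 and 6.74 RPKM with VD3, against 11.6, 12.9 and 12.2 RPKM with vehicle, 1.91-fold lower (log2 difference -0.84 ± 0.11 SE, adjusted p = 1.75e-05). Osteogenic day 7 cells had 10.1, 8.45 and 7.38 RPKM with VD3, against 14.6, 14 and 12.4 RPKM with vehicle (log2 difference -0.61 ± 0.11 SE, adjusted p = 0.00127), a call lost with background subtraction. Osteogenic day 15 cells had 6.07, 6.99 and 6.53 RPKM with VD3, against 10.6, 8.25 and 10.3 RPKM with vehicle (log2 difference -0.50 ± 0.11 SE, adjusted p = 0.0355). The libraries did not overlap in any of the 3 states, and the osteogenic day 15 call was lost in all leave-outs but that of vehicle replicate 2 (adjusted p up to 0.266). That call was also lost under 5 of 8 settings, namely a pseudocount of 0.1, median-ratio rescaling, quantile normalization, the replicate block (adjusted p = 0.0558) and background subtraction. In adipogenic cells, where Fzd2 was near background, it measured 0.818, 0.922 and 0.875 RPKM with VD3 and 1.01, 0.974 and 1.18 RPKM with vehicle.

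Fzd1 was lower with VD3 at day 0, with 26.3, 28 and 28.2 RPKM, against 46.5, 44.9 and 44.7 RPKM with vehicle, 1.65-fold (log2 difference -0.70 ± 0.08 SE, adjusted p = 1.88e-06). This held throughout. In osteogenic day 7 cells Fzd1 measured 76.7, 72.2 and 72.5 RPKM with VD3 and 68.2, 67.8 and 75 RPKM with vehicle, and in osteogenic day 15 cells 51.9, 45.4 and 49.8 RPKM with VD3 and 52.1, 47.9 and 47.7 RPKM with vehicle. Both pairs overlapped. The difference of the VD3 effect, osteogenic day 7 minus day 0, was 0.77 ± 0.11 (log2, SE, adjusted p = 0.000401), and it was not called with median-ratio rescaling. Adipogenic libraries had 11, 10.3 and 8.61 RPKM with VD3 and 12.3, 11.9 and 11.2 RPKM with vehicle, a difference that did not pass (log2 difference -0.23, adjusted p = 0.259).

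Rspo2 was lower with VD3 in adipogenic cells. It measured 2.14, 1.98 and 2.23 RPKM with VD3, against 3.75, 3.96 and 4.93 RPKM with vehicle, 1.99-fold lower (log2 difference -0.74 ± 0.09 SE, adjusted p = 1.5e-05), with no overlap and in all 8 settings and 6 leave-outs. At day 0 it measured 58.6, 61.2 and 61.9 RPKM with VD3 and 74.5, 75 and 62.4 RPKM with vehicle (log2 difference -0.21, adjusted p = 0.109). Osteogenic day 7 cells had 29.3, 28.5 and 29.7 RPKM with VD3 and 27.9, 24.7 and 24 RPKM with vehicle (log2 difference 0.19, adjusted p = 0.354), and neither of these passed. The VD3 effect in adipogenic minus that in osteogenic day 7 cells was -0.92 ± 0.13 (log2, SE, adjusted p = 0.000191), which held in all 8 settings and with each of the 12 libraries left out. Rspo2 was thus lower with VD3 in the state in which its vehicle level was lowest.

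**Figure D4:**
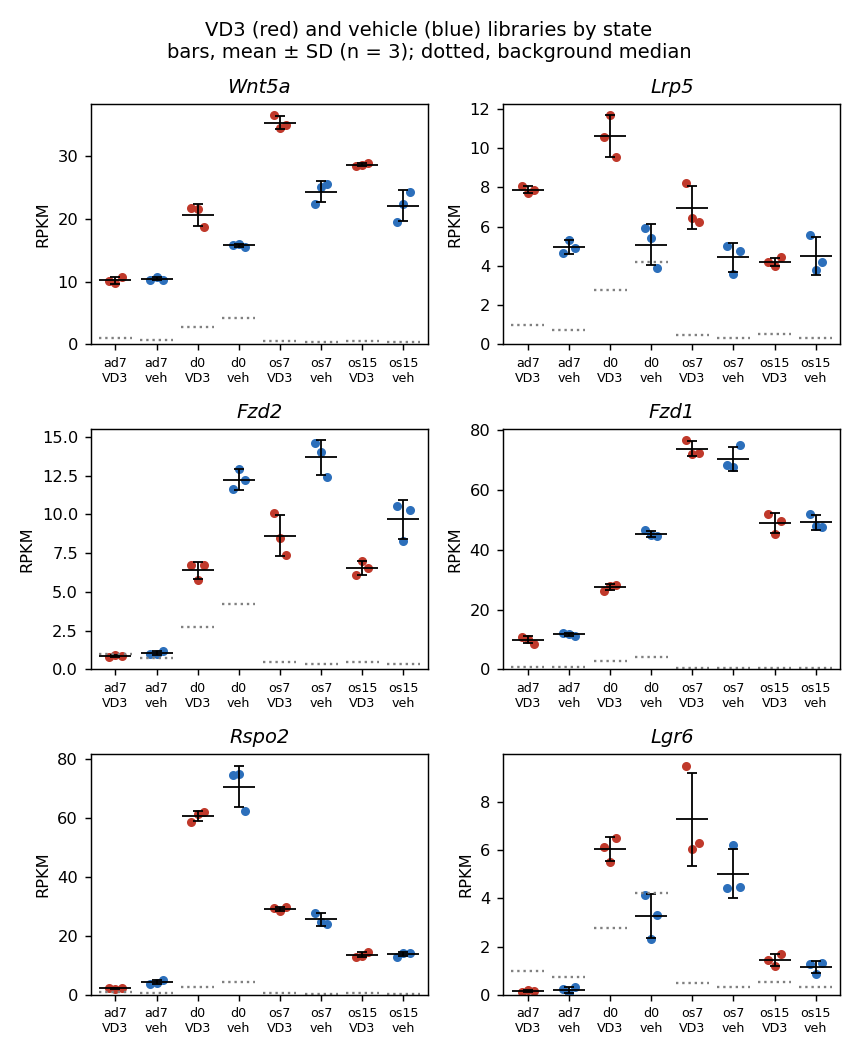
RPKM of 6 members in VD3 (red) and vehicle (blue) libraries of adipogenic day 7 (ad7), day 0 (d0), osteogenic day 7 (os7) and osteogenic day 15 (os15) cells, with bars for the mean ± SD (n = 3) and a dotted line for the background median of the group. Red points lie above blue ones for Wnt5a at day 0 and in osteogenic cells, and below them for Fzd2 in the same states, for Fzd1 at day 0 and for Rspo2 in adipogenic cells.

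Lgr6 was higher with VD3 at day 0, with 6.12, 5.5 and 6.5 RPKM, against 4.13, 2.3 and 3.33 RPKM with vehicle (log2 difference 0.75 ± 0.18 SE, adjusted p = 0.00918). The call was lost without vehicle replicate 2 (adjusted p = 0.0622) and with a pseudocount of 0.1 (adjusted p = 0.0901). The vehicle mean was under its background median of 4.21 RPKM. At osteogenic day 7 Lgr6 measured 9.52, 6.07 and 6.3 RPKM with VD3 and 4.42, 6.21 and 4.46 RPKM with vehicle, which did not pass (log2 difference 0.45, adjusted p = 0.218).

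Lrp6 measured 68.8, 70.1 and 82.1 RPKM with VD3 in osteogenic day 7 cells, against 53.6, 50.4 and 56.6 RPKM with vehicle (log2 difference 0.45 ± 0.10 SE, adjusted p = 0.00487), without overlap. With median-ratio rescaling the difference was 0.34 and not called. Wnt7b in the same cells measured 2.66, 1.67 and 1.6 RPKM with VD3 and 2.64, 5.45 and 4.24 RPKM with vehicle (log2 difference -0.76, adjusted p = 0.0235), Rspo3 2.68, 2.83 and 3.14 RPKM with VD3 and 1.27, 2.02 and 1.81 RPKM with vehicle (log2 difference 0.53, adjusted p = 0.0129), and Ryk 27.1, 27.7 and 22.5 RPKM with VD3 and 34, 33 and 29.9 RPKM with vehicle (log2 difference -0.32, adjusted p = 0.0402). The calls of Rspo3 and Ryk were lost with median-ratio rescaling, quantile normalization and background subtraction, and that of Wnt7b with a pseudocount of 0.1 and with the filter at 5 RPKM. Each of the 3 was also lost without some 1 library. That of Wnt7b was lost without vehicle replicate 2 or 3 or VD3 replicate 2 or 3 (adjusted p up to 0.202), that of Rspo3 without vehicle replicate 1 or VD3 replicate 3 (up to 0.106), and that of Ryk without vehicle replicate 1 or 2 or VD3 replicate 1 or 3 (up to 0.218).

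Fzd5 at day 0 measured 12.1, 12.9 and 12.3 RPKM with VD3 and 18.9, 16.8 and 14.5 RPKM with vehicle (log2 difference -0.39, adjusted p = 0.011). The call was lost without vehicle replicate 1 (adjusted p = 0.0643) and under 3 of 8 settings, its largest transcript alone among them. Wnt2b, Wnt5b and Wnt10b were also called lower with VD3 at day 0, all 3 under the background median of both groups, and Wnt5b and Wnt10b turned direction with background subtraction. That of Wnt2b was lost without any 1 vehicle library or VD3 replicate 2 (adjusted p up to 0.151). The background median itself was 2.76 ± 2.07 RPKM with VD3 and 4.21 ± 0.718 RPKM with vehicle at day 0 (SD, n = 3 each). Fzd4, Fzd7, Fzd8, Ror2, Lgr4 and Tcf7l2 were called with VD3 in none of the 4 states by limma. Of the 30 tested members 15, 13, 5 and 6 had an unadjusted p below 0.05 at day 0, osteogenic day 7, osteogenic day 15 and adipogenic day 7. Of all 21097 tested genes 7197, 3126, 1280 and 1599 had one in the same order of states.

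The VD3 effect was set against that of another state in 4 tests. For osteogenic day 7 minus day 0, 3 members were called, all higher, where 2.55% of all genes were called, 1.85% higher and 0.702% lower. For adipogenic day 7 minus day 0, 3 were called, 2 higher and 1 lower, where 3.47% of all genes were called, 2.46% higher and 1.01% lower. For adipogenic minus osteogenic day 7, 2 were called, both lower, where 1.82% of all genes were called, 0.967% higher and 0.853% lower. For osteogenic day 15 minus day 7 none was called by limma, where 0.185% of all genes were called, 0.0521% higher and 0.133% lower, and 4 members and 1383 genes had an unadjusted p below 0.05. The first 2 of these tests share the day 0 libraries. In them the called members were Fzd1, Fzd5 and Lrp6 for osteogenic day 7 and Rspo2, Fzd1 and Fzd2 for adipogenic day 7, and each of these calls was lost under at least 1 setting or leave-out.

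The other genes of the pathway were read from 4 lists, taken from general knowledge and not among the members. In adipogenic against osteogenic day 7 vehicle cells, the list of secretion and beta-catenin machinery had 0 higher and 9 lower of 18 tested genes (median log2 difference -0.38, against 0.02 over all tested genes). Of all genes 12.4% were called higher and 25.4% lower in this comparison. Wls, which carries Wnt proteins to the cell surface, averaged 46.3 ± 1.58 RPKM in adipogenic and 214 ± 23.7 RPKM in osteogenic day 7 cells (log2 difference -2.18 ± 0.10 SE, adjusted p = 2.48e-14). The kinase gene Csnk1e (3.95 ± 0.602 against 9.92 ± 0.657 RPKM) and Pygo2, a nuclear co-factor of beta-catenin (2.38 ± 0.0901 against 6.46 ± 0.741 RPKM), were also lower in adipogenic cells. Secreted antagonists had 0 higher and 7 lower of 9 tested (median -1.56, against 0.02 over all genes). Sfrp4, a Frizzled-like protein that binds Wnt ligands, averaged 0.194 ± 0.0868 RPKM in adipogenic and 65.5 ± 5.65 RPKM in osteogenic day 7 cells, its relative Frzb 1.22 ± 0.378 and 25.4 ± 2.49 RPKM, and Sfrp1 3.39 ± 0.549 and 61.4 ± 5.18 RPKM. Wls and 7 of 9 tested antagonists were thus lower in adipogenic cells.

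Feedback inhibitors and target genes had 2 higher and 7 lower of 12 tested in the same comparison (median -0.79, against 0.02 over all genes). The matricellular gene Wisp1 averaged 3.5 ± 0.215 RPKM in adipogenic and 46.2 ± 2.07 RPKM in osteogenic day 7 cells (log2 difference -3.39 ± 0.08 SE, adjusted p = 4.7e-20), and the cyclin gene Ccnd1 26.5 ± 1.7 and 225 ± 28.8 RPKM (log2 difference -3.04 ± 0.09 SE, adjusted p = 1.14e-17). Both have many inputs besides Wnt. The planar polarity and calcium list had 1 higher and 6 lower of 9 tested (median -0.70, against 0.02 over all genes). Its member Prickle1 averaged 0.705 ± 0.191 RPKM in adipogenic and 11.3 ± 1.11 RPKM in osteogenic day 7 cells, and Ptk7, a Wnt co-receptor of that arm, 8.69 ± 0.902 and 33.6 ± 5.48 RPKM.

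Against day 0, osteogenic day 7 cells had 8 higher and 2 lower of the 12 tested feedback and target genes (median 0.73, against -0.46 over all genes), where 13.6% of all genes were called higher and 50.4% lower. With the filter at 5 RPKM the all-gene median was 0.03 in osteogenic day 7, 0.03 in osteogenic day 15 and -0.36 in adipogenic cells. Higher calls then made up 48.9%, 50.8% and 31.4% of all calls, against 21.3%, 24.7% and 16.7% in the main fit. With background subtraction the all-gene medians were 0.67, 0.71 and 0.28. Counts and medians of the lists were not taken under either setting. Tnfrsf19 averaged 21 ± 0.427 RPKM in osteogenic day 7 and 3.63 ± 0.635 RPKM in day 0 cells (log2 difference 2.26 ± 0.15 SE, adjusted p = 3.19e-10), Wisp1 46.2 ± 2.07 and 16.5 ± 0.582 RPKM, and the Dishevelled inhibitor Nkd2 8.78 ± 0.847 and 3.56 ± 0.51 RPKM. The day 0 means of Tnfrsf19 and Nkd2 were under the background median of 4.21 RPKM, so their rises start from a level not separable from it. Machinery genes had 6 higher and 1 lower of 18 (median 0.16), antagonists 4 higher and 2 lower of 9 (median -0.04) and the polarity list 2 higher and 2 lower of 9 (median -0.12). Osteogenic day 15 cells had 7 higher and 3 lower feedback and target genes, 5 and 4 machinery genes, 5 and 2 antagonists and 2 and 4 polarity genes, where 17.5% of all genes were called higher and 53.4% lower. Their medians were 0.35, -0.02, 0.46 and -0.30, against -0.55 over all genes. Adipogenic against day 0 cells had 1 and 6, 0 and 9, 0 and 8, and 2 and 7 in the same order of lists, where 13.2% of all genes were called higher and 65.5% lower. The medians were -0.20, -0.40, -1.39 and -0.89, against -0.83 over all genes. In osteogenic day 15 against day 7 cells 0 and 3, 0 and 4, 1 and 2, and 0 and 1 were called, where 6.87% of all genes were called higher and 6.47% lower. Antagonists split in osteogenic day 15 cells: Sfrp1 averaged 9.62 ± 0.426 RPKM there and 232 ± 13.2 RPKM at day 0, whereas Sfrp4 averaged 76.2 ± 3.41 and 3.71 ± 0.455 RPKM. The day 0 mean of Sfrp4 was likewise under the background median.

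With VD3, feedback and target genes had 1 higher and 4 lower at day 0, 2 and 1 in osteogenic day 7, 1 and 1 in osteogenic day 15 and 1 and 1 in adipogenic cells. Of all genes 15.0%, 5.26%, 0.773% and 2.08% were called in these states. The medians of the list were -0.31, 0.03, -0.08 and -0.04, against -0.27, 0.07, 0.02 and 0.05 over all genes. Apcdd1, an inhibitor that binds Wnt and Lrp5, was higher with VD3 in all 4 states. It averaged 16.4 ± 0.949 RPKM with VD3 and 3.69 ± 0.888 RPKM with vehicle at day 0 (log2 difference 1.91 ± 0.12 SE, adjusted p = 2.36e-10), 17.1 ± 3.05 and 6.44 ± 0.117 RPKM in osteogenic day 7 (log2 difference 1.27 ± 0.12 SE, adjusted p = 2.78e-07), 10.4 ± 0.272 and 5.82 ± 0.737 RPKM in osteogenic day 15, and 19 ± 0.417 and 8.43 ± 0.254 RPKM in adipogenic cells (log2 difference 1.08 ± 0.12 SE, adjusted p = 3.6e-06). The osteogenic day 15 call (log2 difference 0.75 ± 0.12 SE, adjusted p = 0.00147) was lost with background subtraction, and the other 3 held throughout. The day 0 vehicle mean of Apcdd1 was under the background median of 4.21 RPKM. Its difference at day 0 therefore starts from a level not separable from background. Antagonists had 0 higher and 3 lower at day 0, 0 and 1 in osteogenic day 7, 0 and 1 in osteogenic day 15 and 1 and 2 in adipogenic cells, with medians of -0.65, -0.05, -0.23 and 0.01. At day 0 Sfrp1 averaged 112 ± 2.09 RPKM with VD3 and 232 ± 13.2 RPKM with vehicle (log2 difference -1.04 ± 0.09 SE, adjusted p = 4.31e-08), and Sfrp2 3.59 ± 0.767 and 15.2 ± 1.36 RPKM (log2 difference -1.83 ± 0.13 SE, adjusted p = 1.01e-09). Machinery genes had 0 higher and 2 lower at day 0, and 0 called by limma in each of the other 3 states. Polarity genes had 2 higher and 2 lower at day 0, 1 and 1 in osteogenic day 7, 0 called in osteogenic day 15 and 1 higher in adipogenic cells. Medians of machinery genes in the same order of states were 0.01, 0.08, -0.07 and 0.00025, and those of polarity genes -0.31, 0.08, -0.15 and 0.07.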

How the data were processed

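RNA from 24 libraries in 8 groups of 3 was sequenced by the authors after ribosomal RNA depletion and directional library preparation, per the labels' protocols. TopHat and mm9 are named in the submitters' processing notes. The counting tool, annotation, filters and use of strand are not given in the sources used here. The deposited values are RPKM per transcript (30795 transcripts), made by the authors. They were summed by symbol into 25385 genes after leaving out 40 entries whose symbols had become dates. Depth was estimated from the steps between 150 low values per library, of which 97.3 to 100% came out whole (tolerance 0.1 reads), and it covers counting error only.

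The test used limma 3.58.1 (R 4.3.3) on log2(RPKM + 1) for the 21097 genes reaching 1 RPKM in 3 or more libraries. All 24 libraries and 8 groups entered one model, with trended and robust empirical Bayes variances and Benjamini-Hochberg adjustment within each of 13 comparisons. The fit was checked on simulated data. Members and lists were chosen with earlier results of these data known. Values of single libraries are given for the 17 members whose mean reaches 5 RPKM in some group and, chosen after its values were seen, for Axin2. List genes are named from the 3 largest called differences whose higher group averages 5 RPKM or more. The alternatives changed the pseudocount to 0.1, dropped the filter or raised it to 5 RPKM, rescaled by median ratio or quantiles, added a replicate term, subtracted each library's background median, took the largest transcript of a symbol, or replaced vehicle by VD3-treated libraries. The last was repeated with a single day 0 library (VD3 replicate 2, assumed to vary like the other groups), and each library was left out in turn. Promoter letters come from RefSeq on GRCm38.p6, matched by symbol. The remaining steps used Python 3.11.15, numpy 2.4.6, pandas 2.3.3 and matplotlib 3.10.9. Within-group correlations were 0.923 to 0.993, and 0 pairs of libraries were identical.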

Additional observations from a re-analysis of the deposited data

Results flagged for a closer look

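The VD3 effect on 6 members differed between states by a test of the difference itself, on the log2(RPKM + 1) scale (limma, adjusted p below 0.05). For osteogenic day 7 minus day 0 the difference of effects was 0.77 for Fzd1, 0.60 for Fzd5 and 0.56 for Lrp6. For adipogenic day 7 minus day 0 it was -0.52 for Rspo2, 0.48 for Fzd1 and 0.71 for Fzd2. For adipogenic minus osteogenic day 7 it was -0.56 for Wnt5a and -0.92 for Rspo2.

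The value for Fzd2 comes from a gene near background in adipogenic cells (0.872 ± 0.0521 RPKM with VD3 and 1.06 ± 0.108 RPKM with vehicle, SD, n = 3 each). It was not called under 4 of 8 other settings, a pseudocount of 0.1 (log2 0.68) among them. With 1 of 12 libraries left out, the call of Fzd5 was lost without day 0 vehicle replicate 1 or 2, osteogenic vehicle replicate 1 or 2 or osteogenic VD3 replicate 1 (adjusted p up to 0.0804). That of Lrp6 was lost without day 0 VD3 replicate 3, day 0 vehicle replicate 1 or 2, osteogenic VD3 replicate 3 or osteogenic vehicle replicate 1 or 2 (up to 0.087). In adipogenic minus day 0 cells, the call of Rspo2 was lost without replicate 2 of either VD3 group or replicate 3 of either vehicle group (up to 0.0852), and that of Fzd1 without adipogenic VD3 replicate 1 or 2 or adipogenic vehicle replicate 3 (up to 0.0683). The other 4 kept their call in all 12. Of the 8 other settings, 3 lost the call of Fzd5, 2 that of Lrp6 and 1 that of Fzd1 in osteogenic day 7 minus day 0. The call of Fzd1 in adipogenic day 7 minus day 0 was lost under 2. That of Wnt5a in adipogenic minus osteogenic day 7 was also lost under 2, and both calls of Rspo2 under 0.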

How the results depend on the processing

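Over called differences of the 17 members reaching 5 RPKM, Axin2 and Tcf7, 813 values came from another setting, of which 695 kept direction and call, 92 lost the call and 26 turned direction. Of 582 values with 1 library left out, 515 kept the call, 67 lost it and 0 turned. The 26 are log2 differences from day 0, and the cause was not tested. With the lower members included, 15 of the called members in adipogenic day 7, 9 in osteogenic day 7 and 11 in osteogenic day 15 cells against day 0, and 2 with VD3 at day 0, turned direction under some setting. With background subtraction the values that turned were 0.42 for Fzd4 and 0.72 for Fzd8 in osteogenic day 7 cells, 0.20 for Fzd2, 0.17 for Fzd4, 0.29 for Fzd8, 0.85 for Lgr6 and 0.82 for Tcf7l2 in osteogenic day 15 cells, and 0.70 for Fzd8, 0.23 for Ror2 and 0.41 for Tcf7l2 in adipogenic cells. With quantile normalization they were 0.19 for Lgr6 and 0.031 for Tcf7l2 in osteogenic day 15 cells, and 0.31 for Fzd8, 0.54 for Ror2 and 0.033 for Tcf7l2 in adipogenic cells. With median-ratio rescaling they were 0.046 for Fzd2 and 0.16 for Ryk in osteogenic day 15 cells, and 0.035 for Wnt5a, 0.21 for Fzd8 and 0.00049 for Lrp6 in adipogenic cells. With VD3-treated libraries they were 0.20 for Fzd8 and 0.078 for Lrp6 in osteogenic day 7, 0.025 for Fzd2 in osteogenic day 15 and 0.12 for Fzd8 in adipogenic cells. With these and a single day 0 library, VD3 replicate 2, they were 0.15 for Fzd2 in osteogenic day 15 and 0.29 for Tcf7 in adipogenic cells.

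The number of members called moved as follows. Against day 0, adipogenic day 7 cells had 24, and 12 with the filter at 5 RPKM (17 members tested), 14 with quantile normalization, 13 with background subtraction and 13 with the lone day 0 library. Osteogenic day 7 cells had 18, and 11 with the filter at 5 RPKM and 11 with the lone library. Osteogenic day 15 cells had 23, and 15 with the filter at 5 RPKM, 14 with VD3-treated libraries and 15 with the lone library. Osteogenic day 15 against day 7 cells had 7, and 13 with VD3-treated libraries. For VD3 against vehicle, day 0 had 9, and 5 with background subtraction. Osteogenic day 7 had 7, and 4 with quantile normalization and 2 with median-ratio rescaling. Osteogenic day 15 had 2, and 1 with a pseudocount of 0.1, quantile normalization or the replicate block, and 0 with median-ratio rescaling or background subtraction. Adipogenic day 7 had 2, and 1 with median-ratio rescaling, quantile normalization or background subtraction. Differences of the VD3 effect numbered 3 for osteogenic day 7 minus day 0 (5 with quantile normalization, 0 with median-ratio rescaling), 3 for adipogenic day 7 minus day 0 (5 with quantile normalization) and 2 for adipogenic minus osteogenic day 7 (1 with median-ratio rescaling and with background subtraction). Leaving out 1 library gave 21 to 23 members for adipogenic day 7, 17 to 18 for osteogenic day 7 and 21 to 23 for osteogenic day 15 cells against day 0, 6 to 7 for osteogenic day 15 against day 7 and 17 to 19 for adipogenic against osteogenic day 7 cells. It gave 7 to 13 for VD3 at day 0, 4 to 7 in osteogenic day 7, 0 to 1 in osteogenic day 15 and 1 in adipogenic cells, and for the differences of effects 1 to 5 (osteogenic day 7 minus day 0), 1 to 4 (adipogenic day 7 minus day 0), 0 (osteogenic day 15 minus day 7) and 2 to 3 (adipogenic minus osteogenic day 7).

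Same-numbered libraries of the groups compared correlated at -0.0945 to 0.166 in their deviations from group means. With 3 libraries a group this cannot exclude a pairing, and the labels only number the replicates. With the replicate block the VD3 count in osteogenic day 15 cells was 1, the calls of Fzd8 in adipogenic against day 0 cells and of Fzd2 with VD3 in osteogenic day 15 cells were lost, and no other call of a member printed with library values was. Depth and background limit the low members, since day 0 vehicle levels under the background median of 4.21 RPKM were not separable from it.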
